A study of Rattus norvegicus with 9 samples.

Results

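The immediate early transcription factors described here are Fos, Jun, Egr1, Atf3 and Myc, 5 of the 30560 genes in the count tables. They were chosen by function, through their rat Ensembl gene IDs: ENSRNOG00000008015 for Fos, ENSRNOG00000026293 for Jun, ENSRNOG00000019422 for Egr1, ENSRNOG00000003745 for Atf3 and ENSRNOG00000004500 for Myc. The tables list IDs without symbols, so these names come with the choice of the IDs and were not checked against the files. All 5 IDs were present in all 9 libraries and passed the filter on low counts.

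Immediate early genes are switched on by serum, growth factors, calcium entry and stress before any new protein has to be made, and their transcripts usually decay quickly. Their protein products then set the expression of later genes. In the heart they are known for their rapid response to stretch, adrenergic stimulation and ischaemia.

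RNA was measured in rat cardiomyocytes, the contracting cells of the heart, in 3 groups of 3 libraries. The labels call the cells NRCM, the usual abbreviation for neonatal rat cardiomyocytes, and state no age. The normoxia group was not deprived of oxygen. The H/R-DMSO group underwent hypoxia and reoxygenation (H/R), which models ischaemia and reperfusion in culture: 6 h in 0.1% oxygen without glucose or pyruvate in the medium, then 12 h back in 21% oxygen and standard medium, to which the solvent DMSO was added. The H/R-AS8351 group differed from it by 0.5 µM AS8351, named in the labels as an inhibitor of the histone demethylase Kdm5b, given with the reoxygenation. No genetic change is named for any group. Whether normoxia cells had DMSO or fresh medium is not stated in the labels, so H/R-DMSO against normoxia covers low oxygen, medium, reoxygenation and possibly the solvent together. Only 1 time after reoxygenation was sampled.

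The libraries held 34442733 to 54888975 counts, and 15879 genes were tested. Members rested on 409 counts (Fos in H/R-DMSO) to 9826 counts (Egr1 in normoxia) per library. Separate cultures behind the libraries are not stated, so the spread behind the p-values is that of these samples alone and may be technical. Markers of cardiomyocytes and of other heart cells are not analysed here, because the IDs could not be paired with symbols. In such bulk RNA, fewer expressing cells and less RNA per cell cannot be told apart. Values are CPM, counts scaled to a common library size with TMM factors, which sets each gene against the rest of the RNA in its library. CPM is not corrected for gene length, so levels are compared between groups and not between genes.

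All 5 members were lower in H/R-DMSO than in normoxia, where 25.2% of all genes tested were called lower and 27.5% higher. With AS8351 all 5 were still lower than in normoxia, a comparison in which 19.7% of genes were lower and 19.7% higher. Between the reoxygenated groups, Fos was higher with AS8351, as were 13.1% of genes, while 9.97% were lower. Jun, Egr1, Atf3 and Myc did not pass the test there. Fos had the largest decrease among the members, to 43.9% of its normoxia level, and Egr1 the smallest, to 72.8%. A gene was called when its p-value from edgeR's quasi-likelihood test, adjusted over all genes tested, was under 0.05.

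**Figure D1:**
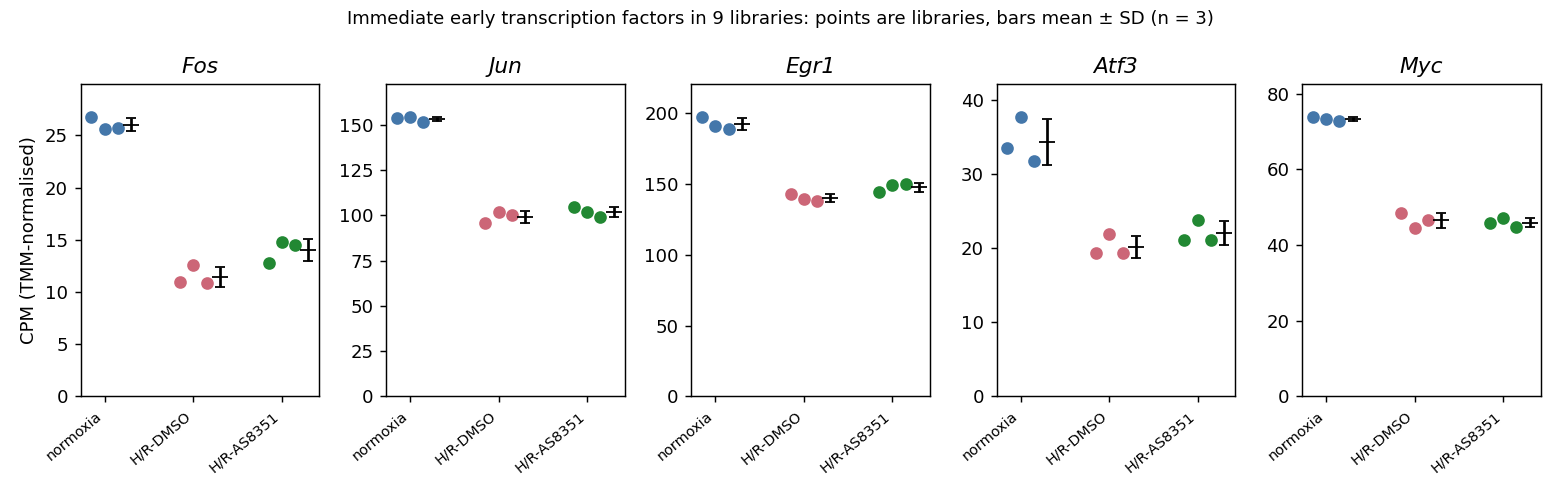
TMM-normalised CPM (y axis, from 0, a separate scale for each gene) of the 5 members in each library, by group (x axis), with points for libraries and bars for mean ± SD (n = 3). For every member the 3 normoxia libraries lie above the 6 reoxygenated ones. The reoxygenated groups stand narrowly apart for Fos and Egr1, and Egr1 was not called there (edgeR adjusted p = 0.16). Ranges did not overlap for 57.5% of all genes in H/R-DMSO against normoxia, 48.9% in H/R-AS8351 against normoxia and 35.0% between the reoxygenated groups.

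Fos is the inducible partner of the dimeric factor AP-1, and its transcript is among the shortest lived of the immediate early class. Its CPM was 26.8, 25.6 and 25.7 in the normoxia libraries. It was 10.9, 12.6 and 10.9 in the H/R-DMSO libraries, and 12.8, 14.8 and 14.5 in those with AS8351. The groups did not overlap, although replicate 2 of H/R-DMSO and replicate 1 of H/R-AS8351 came close to each other. The means were 26.0 ± 0.620 (SD, n = 3), 11.5 ± 0.962 and 14.0 ± 1.06 CPM. After H/R, Fos fell by a log2 fold change of -1.19 with an SE of 0.08 (edgeR adjusted p = 3.08e-16), a decrease of 2.28-fold. With AS8351 it was 22.9% higher than in H/R-DMSO, a log2 fold change of 0.30 with a 95% confidence interval from 0.13 to 0.47 (SE 0.08, edgeR adjusted p = 0.00769). This call was lost without either of 2 libraries: the log2 fold change was 0.26 without replicate 3 of H/R-DMSO (adjusted p = 0.0504 by edgeR) and 0.26 without replicate 2 of H/R-AS8351 (adjusted p = 0.0533 by edgeR), and over all alternatives the adjusted p ranged from 0.00267 to 0.0533. Against normoxia, Fos in H/R-AS8351 was lower by a log2 fold change of -0.89 with an SE of 0.08 (edgeR adjusted p = 1.79e-12). The order of the levels was thus normoxia, H/R-AS8351, H/R-DMSO.

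Jun is the partner with which Fos forms AP-1, and it can also pair with itself. Its CPM was 154, 154 and 152 in the normoxia libraries. It was 95.6, 102 and 100 in the H/R-DMSO libraries, and 104, 102 and 99.0 in those with AS8351. Normoxia stood clear of both reoxygenated groups, which overlapped. After H/R, Jun fell to 64.7% of its normoxia level, a log2 fold change of -0.63 with an SE of 0.04 (edgeR adjusted p = 9.28e-17). With AS8351 the log2 fold change from H/R-DMSO was 0.04 with an SE of 0.04 (edgeR adjusted p = 0.61), and its 95% confidence interval ran from -3.37% to 8.72%. The sign of this small difference was negative when libraries were scaled to their total count alone. Against normoxia, Jun in H/R-AS8351 was lower by a log2 fold change of -0.59 with an SE of 0.04 (edgeR adjusted p = 1.16e-15).

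Atf3 is a stress-induced member of the same leucine zipper family, which can dimerise with Jun and is known mostly as a repressor. The CPM of Atf3 was 33.5, 37.7 and 31.8 in the normoxia libraries. It was 19.3, 21.9 and 19.3 in the H/R-DMSO libraries, and 21.1, 23.9 and 21.2 in those with AS8351. All normoxia libraries lay above all others, and the reoxygenated groups overlapped through replicate 2 of H/R-DMSO. After H/R, Atf3 fell by a log2 fold change of -0.77 with an SE of 0.07 (edgeR adjusted p = 5.51e-12), to 58.6% of normoxia. The difference of H/R-AS8351 from H/R-DMSO was 0.13 on the log2 scale with an SE of 0.08 (edgeR adjusted p = 0.223), and its 95% confidence interval ran from -1.37% to 21.8%. The increase of Fos, 22.9%, lay just outside this interval, but the interval of Fos itself, 9.16% to 38.4%, overlapped that of Atf3. Atf3 in H/R-AS8351 was still lower than in normoxia, at a log2 fold change of -0.64 with an SE of 0.07 (edgeR adjusted p = 1.04e-09).

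Egr1 is a zinc finger factor that binds GC-rich promoters and is induced through serum response factor, which binds CArG boxes. Of the 5 members, 1 has an entry in the RefSeq promoter table, and it is Egr1. The 250 bases before its gene start (RefSeq, build GRCr8, chr18:26736828-26737077, plus strand, 63.2% G and C) are shown as background on this gene and were not tied by any test to its change. Capitals mark the CArG boxes.

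Egr1: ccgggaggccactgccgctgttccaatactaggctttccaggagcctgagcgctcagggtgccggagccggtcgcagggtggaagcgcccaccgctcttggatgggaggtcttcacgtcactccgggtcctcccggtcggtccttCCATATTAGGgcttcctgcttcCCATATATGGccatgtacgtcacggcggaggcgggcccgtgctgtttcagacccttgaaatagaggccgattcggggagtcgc

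The 2 CArG boxes, CCATATTAGG and CCATATATGG, began at positions -105 and -83 from the gene start. At least 1 CArG box was found in 1.5% of the 33469 windows of this length in the table, and 2 or more in 0.0209%. The cAMP response element half-site CGTCA also occurred at 2 places in the Egr1 window, beginning at -135 and -66. At least 1 was found in 18.2% of windows, and 2 or more in 3.98%. Both strands were searched, and none of these matches overlapped another. The full element TGACGTCA, the AP-1 site TGACTCA, the E-box CACGTG of Myc and the Egr1 site GCGTGGGCG did not occur in these letters, and were found in 1.59%, 4.05%, 5.59% and 0.478% of windows. A match describes the letters and not the binding of a factor.

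The CPM of Egr1 was 197, 191 and 189 in the normoxia libraries. It was 143, 140 and 138 in the H/R-DMSO libraries, and 144, 149 and 150 in those with AS8351. The 3 groups did not overlap, with the lowest H/R-AS8351 library close above the highest H/R-DMSO library. After H/R, Egr1 fell by a log2 fold change of -0.46 with an SE of 0.04 (edgeR adjusted p = 2.44e-13). With AS8351 Egr1 was, by the edgeR estimate, 5.55% higher than in H/R-DMSO, with a 95% confidence interval from -0.112% to 11.5%. This is a log2 fold change of 0.08 (SE 0.04, unadjusted p = 0.0546 and adjusted p = 0.16 by edgeR). Egr1 did not pass the test although the ranges were apart, as they were for 35.0% of all genes tested. Egr1 in H/R-AS8351 was lower than in normoxia, at a log2 fold change of -0.38 with an SE of 0.04 (edgeR adjusted p = 7.87e-11).

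Myc is a factor of cell growth and ribosome production that binds E-boxes together with Max. Its CPM was 73.8, 73.4 and 72.7 in the normoxia libraries. It was 48.6, 44.4 and 46.6 in the H/R-DMSO libraries, and 45.9, 47.1 and 44.8 in those with AS8351. The normoxia libraries were close to each other and above all others, and every H/R-AS8351 library lay within the H/R-DMSO range. After H/R, Myc fell to 63.5% of normoxia, a log2 fold change of -0.66 with an SE of 0.05 (edgeR adjusted p = 9.57e-15). The difference between the reoxygenated groups was -0.02 on the log2 scale with an SE of 0.05 (edgeR adjusted p = 0.859), and its 95% confidence interval ran from -8.06% to 6.17%, so that an increase like that of Fos lay outside it. Against normoxia, Myc in H/R-AS8351 was lower, at -0.67 on the log2 scale with an SE of 0.05 (edgeR adjusted p = 7.87e-15).

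**Figure D2:**
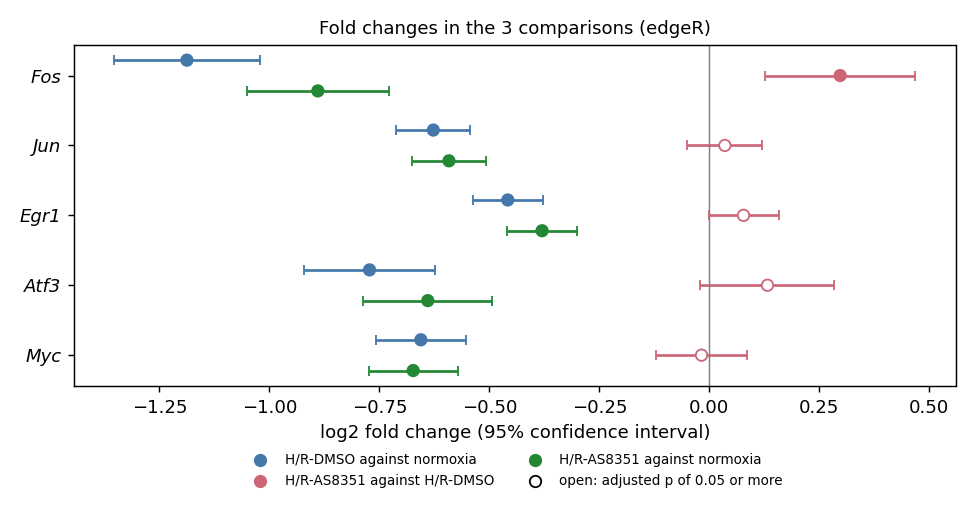
Log2 fold change (x axis) with its 95% confidence interval for each member (y axis) in the 3 comparisons, with filled points for an adjusted p under 0.05 and open points otherwise. Both comparisons with normoxia lie below 0 for all 5 members, and between the reoxygenated groups the interval of Fos alone stays above 0.

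Many other genes changed in the same comparisons. In H/R-DMSO against normoxia, 5 of 5 members had CPM ranges without overlap between the groups, as had 57.5% of all genes. The median log2 fold change was -0.66 for the members and 0.03 over all genes. Fos lay far down this distribution: 3.55% of genes tested had a lower log2 fold change, against 7.30% for Atf3, 9.28% for Myc, 9.90% for Jun and 14.3% for Egr1. Scaled to the total count alone, the genes called were 2515 lower and 7282 higher, in place of 4003 and 4361, and the median of all genes moved up by 0.16 on the log2 scale. Under that scaling the members were still called lower, from -1.02 for Fos to -0.30 for Egr1.

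In H/R-AS8351 against H/R-DMSO, the ranges did not overlap for 2 of 5 members, Fos and Egr1, and for 35.0% of all genes. The median log2 fold change was 0.08 for the members and -0.01 for all genes. Fos stood above 87.3% of genes, and Myc near the middle, above 47.4%. Total count scaling turned the split of all called genes from 1583 lower and 2088 higher to 2383 and 1656, and Fos kept a log2 fold change of 0.26 there (edgeR adjusted p = 0.0192). In H/R-AS8351 against normoxia, the ranges did not overlap for 5 of 5 members and for 48.9% of genes. The median of the members was -0.64, beside 0.01 over all genes. Here the split went from 3130 lower and 3127 higher to 1786 and 5875 with total count scaling, under which the members lay between -0.77 for Fos and -0.25 for Egr1. The 3 comparisons share groups of libraries, so their values are only set side by side.

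**Figure D3:**
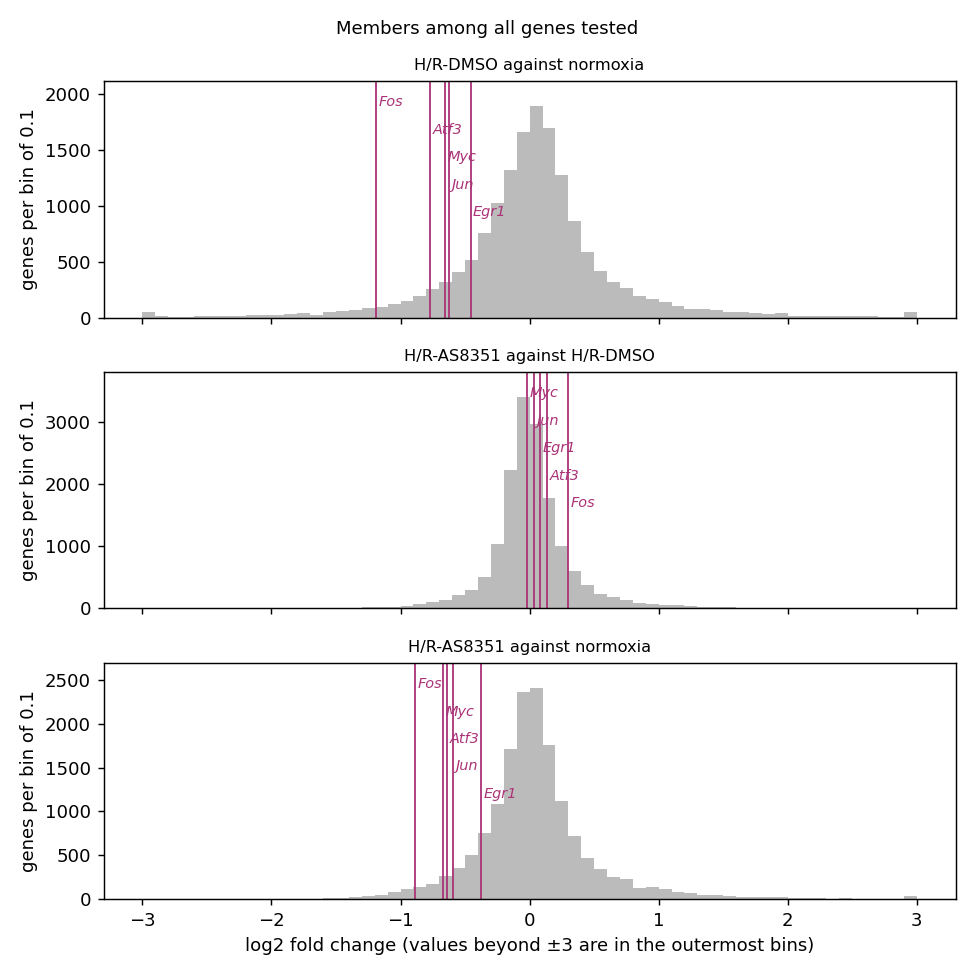
Number of genes tested (y axis, grey bars) by log2 fold change in bins of 0.1 (x axis) in each comparison, with a vertical line for each member. The members lie on the left side of the distribution in both comparisons with normoxia, and around its centre, with Fos to the right, in H/R-AS8351 against H/R-DMSO.

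By the edgeR estimates, the members did not all fall by the same amount. The 95% confidence interval of the log2 fold change of Fos after H/R, -1.35 to -1.02, lay below those of the other members, of which Atf3 came nearest at -0.92 to -0.62. The ratio of Fos to each other member was therefore followed per library, on the log2 scale with the normoxia mean at 0. In H/R-DMSO, the Fos to Jun ratio was -0.56 ± 0.09 (SD, n = 3), Fos to Myc -0.53 ± 0.18, Fos to Egr1 -0.73 ± 0.12 and Fos to Atf3 -0.42 ± 0.01. No H/R-DMSO library overlapped normoxia in these 4 ratios. All share Fos, which was singled out for its fall in the same libraries, so this adds no separate support. How often the ratios of other gene pairs overlap was not determined. Among the pairs without Fos, Egr1 to Atf3 was 0.31 ± 0.11, Egr1 to Myc 0.20 ± 0.05 and Jun to Egr1 -0.17 ± 0.07 in H/R-DMSO, each free of overlap with normoxia and each with Egr1 as the member that fell less. Jun to Myc was 0.03 ± 0.11, Jun to Atf3 0.14 ± 0.08 and Atf3 to Myc -0.11 ± 0.17, and these 3 overlapped normoxia. In H/R-AS8351, Jun to Myc was 0.08 ± 0.04 and was among the 7 of 10 ratios that did not overlap normoxia. None of these ratio differences could pass an exact two-sided permutation test of 3 against 3 libraries, which cannot go below p = 0.1. The adjusted p of that test was at least 0.2.

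With AS8351 the Fos to Jun ratio was -0.30 ± 0.14 (SD, n = 3), between the other groups in its mean, and its range touched that of H/R-DMSO. Fos to Egr1 and Fos to Myc overlapped H/R-DMSO as well, and Fos to Atf3, at -0.26 ± 0.09, did not. It was the 1 of 10 ratios without overlap between the reoxygenated groups, and with AS8351 it overlapped normoxia. In the fit across all genes, the 95% confidence interval of the AS8351 difference of Fos was 0.13 to 0.47. This interval lay above those of Jun, -0.05 to 0.12, and Myc, -0.12 to 0.09, and overlapped those of Egr1 and Atf3. Fos was singled out as the only member called in this comparison, in the same libraries, so this adds no separate support. Its call was lost without replicate 3 of H/R-DMSO or without replicate 2 of H/R-AS8351. Whether Fos differed from the other members in its response to AS8351 cannot be settled by the ratios: an exact two-sided permutation test of 3 against 3 libraries cannot go below p = 0.1, and the adjusted p over the 30 comparisons of ratios was at least 0.2.

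**Figure D4:**
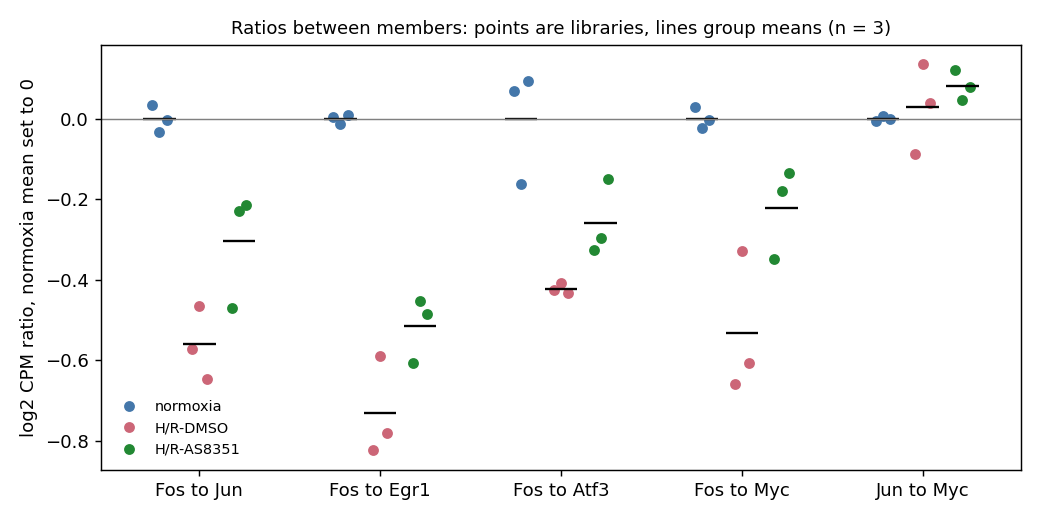
Log2 ratio of the CPM of 2 members (y axis, normoxia mean set to 0) for 5 of the 10 pairs (x axis), with points for libraries and lines for group means (n = 3). The 4 ratios of Fos are below 0 in all H/R-DMSO and H/R-AS8351 libraries, while Jun to Myc lies between -0.09 and 0.14 over all libraries. Of the pairs not drawn, Egr1 to Atf3, Egr1 to Myc and Jun to Egr1 also did not overlap normoxia in H/R-DMSO.

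Within every group, Jun, Egr1 and Myc varied less than the median gene tested and Atf3 more. The coefficient of variation between libraries was 0.786% for Myc, 0.832% for Jun and 2.25% for Egr1 in normoxia, where the median gene tested had 5.69%. It was 8.87% for Atf3 in normoxia and 8.40% for Fos in H/R-DMSO, the largest values among the members. Counting alone would give 4.94% for the H/R-DMSO library with 409 Fos counts and 1.97% for the normoxia library with 2572 Myc counts. The median covers all genes tested, whatever their counts. Genes with like counts were not compared, so the spread is not read as a trait of the members. Once the group means were removed, the deviations of the members had Pearson correlations from -0.57 (Jun and Egr1) to 0.56 (Fos and Atf3) over the 9 libraries, given as a description. Libraries were therefore not ordered alike for all members within a group.

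The gene whose log2 CPM was most like that of Fos over the 9 libraries, among the 11260 genes that averaged 5 CPM or more, was ENSRNOG00000033090, with a Pearson correlation of 0.9991, and 0.98 once group means were removed. Its means were 179, 107 and 122 CPM in normoxia, in H/R-DMSO and with AS8351, and it had log2 fold changes of -0.74 after H/R and 0.20 with AS8351 (adjusted p = 3.02e-18 and 0.000719 by edgeR). For Egr1 it was ENSRNOG00000017253, with a correlation of 0.997, and 0.81 without group means. Its means were 90.2, 58.8 and 63.1 CPM in the same order. A high correlation over the 9 libraries was common: 13.7% of these genes correlated with Fos above 0.9, and 8.03% with Myc. Each gene printed here is the highest of 11260 candidates, so its correlation is high by choice.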

How the data were processed

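Each library has a table of unnormalised read counts by Ensembl ID, which the authors made with Trimmomatic 0.39, STAR 2.7.3a, featureCounts 2.0.1 and build rn6, per the submitters' processing notes, which also name DESeq2 1.32.0. Annotation release and strand setting: not given in the sources used here. So overlapping or antisense genes may share counts with a member. RNA was extracted with TRIzol and the NEBNext Ultra II chemistry was used for the libraries, per the labels' protocols.

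Groups were taken from the titles. Genes were filtered with filterByExpr (minimum count 10, minimum total 15), which kept 15879 of 30560. Counts were fitted over all 9 libraries with edgeR 4.0.16 in R 4.3.3 (TMM, quasi-likelihood test, Benjamini-Hochberg over all genes tested). The SE is the size of the log2 fold change divided by the square root of F. The code was tested on simulated data. Replicates differed from each other beyond counting noise (chi-square per degree of freedom 3.89 to 8.72), so no pair was taken for 1 library deposited again. This does not show separate cultures. The named genes are the 5 members and, for each member, the gene most like it, of which the 2 highest correlations are printed. The other lists and the cell type markers needed symbols and are not analysed here: 0 IDs matched the RefSeq gene table. The members and lists were chosen with earlier results of these data known. Alternatives were RLE, upper-quartile and total count scaling, no filter, DESeq2 1.42.0, limma-voom (limma 3.58.1), a minimum mean of 1 CPM, the compared groups alone, the replicate number as a block, and each library left out.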

Additional observations from a re-analysis of the deposited data

How the results depend on the processing

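Of 270 values of the members under alternatives, 265 kept their direction and their side of the threshold. This total includes fits without a library of the group not compared, which moved the values little. All exceptions were in H/R-AS8351 against H/R-DMSO. The difference of Fos between H/R-AS8351 and H/R-DMSO ranged from 0.26 to 0.37 with a library left out, and fell short of the threshold without replicate 3 of H/R-DMSO (0.259) and without replicate 2 of H/R-AS8351 (0.261). In the same comparison Jun was -0.0017 with total count scaling, and Myc was 0.0137 without replicate 1 of H/R-DMSO and 0.00083 without replicate 3 of H/R-AS8351, ranging from -0.0488 to 0.0137. These have the opposite sign of the main values, which were not called either. The cause was not tested. Counts of called genes over both directions stayed within 1.5 times in the alternatives run. By direction, total count scaling moved the lower and higher counts from 4003 and 4361 to 2515 and 7282 after H/R, and from 3130 and 3127 to 1786 and 5875 for H/R-AS8351 against normoxia. It moved the lower genes with AS8351 from 1583 to 2383, and these were 1042 without replicate 2 of H/R-AS8351.

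Replicate numbers gave no clear pairing: deviations from group means correlated between -0.02 and 0.04 for the same number, and between -0.04 and 0.03 for other numbers. Adding the replicate block gave 8539, 3940 and 6468 called genes (8364, 3671 and 6257 without it), and no member changed its call. Fos with AS8351 was 0.30 (adjusted p = 0.00552 by edgeR). At 3 libraries per group and these depths, differences of a few percent in Jun, Egr1 and Myc were not resolved.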
